A study of Mus musculus with 13 samples.

Results

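Fetal mouse oocytes that lacked the glucocorticoid receptor (GR, encoded by *Nr3c1*) were compared with oocytes that carried it, pooling both ways in which the receptor was removed. The 7 GR-deficient libraries were 3 KO and 4 cKO, and the 6 GR-intact libraries were 3 WT and 3 flox, which together are all 13 libraries of the series. For each library, germ cells carrying the GFP of the *Pou5f1* transgene Tg(Pou5f1-EGFP)2Mnn were sorted from the ovary pair of 1 embryo at E17.5 and read by 3' Tag-Seq, which counts the 3' ends of polyadenylated mRNAs. Samples were taken by their labels, with the cross (constitutive or conditional) as a covariate.

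KO embryos were homozygous for an *Nr3c1* allele (Nr3c1tm1.1Jda in the labels) whose exon 3 had been removed in all tissues by a β-actin Cre, and WT embryos came from the same heterozygous matings. cKO embryos were homozygous for the floxed exon 3 and carried Pou5f1tm1.1(cre/Esr1*)Yseg, a CreERT2 under the *Pou5f1* locus that acts in germ cells once tamoxifen is present. Control flox embryos were homozygous for the same floxed allele and, by the study's methods, lacked the Cre, although the labels print the same allele string for flox and cKO. No library carries a measure of how completely the exon was removed. All dams of the conditional cross, controls included, received 125 μg / g tamoxifen at E10.5, and those of the constitutive cross received none. The ovary around the germ cells kept its receptor in cKO and lost it in KO, so the pooled contrast mixes loss in the whole embryo with loss in germ cells alone. Cross, tamoxifen and breeding cannot be told apart from each other, and the covariate absorbs their shared effect.

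GR is a nuclear receptor that waits in the cytoplasm in a complex with HSP90 and its co-chaperones. On binding a glucocorticoid it moves to the nucleus, where it binds palindromic response elements and induces genes such as *Tsc22d3*, *Fkbp5*, *Per1* and *Sgk1*, and it represses inflammatory genes. At E17.5 the oocytes are in meiotic prophase I, when homologous chromosomes are held by the synaptonemal complex and recombine, and many oocytes are lost before birth.

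Between 2048706 and 3674989 reads were counted on genes per library, with a median of 2563950 in the GR-deficient and 2267280.5 in the GR-intact group, so that 1 read stood for 0.272 to 0.486 CPM. CPM is the usual unit of reads per gene relative to the total of the library, here after TMM normalization. At least 1 read was found for 12946 to 14511 genes in GR-deficient libraries and for 13841 to 15629 in GR-intact ones. Every KO library had reads for fewer genes than every WT library, at 12946 to 13544 against 13841 to 14721. Tested genes at 0 numbered 1553 to 1950 in KO and 988 to 1373 in WT libraries. The cKO and flox libraries overlapped in both measures. Within groups, log2 CPM of genes averaging at least 50 counts correlated with an r of 0.712 to 0.813 between libraries, across genes. Of the 14 oocyte markers, 12 passed the filter on low counts and their summed level was 12200 to 19600 CPM in GR-deficient and 12200 to 16000 CPM in GR-intact libraries. *Sycp3*, which marks the chromosome axis, is listed at 0 in every library, and genes listed at 0 include ribosomal proteins, so a 0 in the table was not read as absence of the mRNA. Summed markers of ovarian somatic cells lay at 168 to 512 and 238 to 442 CPM, and erythroid and macrophage markers at 77.8 to 220 and 96.0 to 1320 CPM. The highest blood value, 1320 CPM, belonged to flox replicate 1. Values without this library stand beside the lists whose sum it moved by more than 0.1 on the log2 scale.

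The targeted gene was read first. *Nr3c1* (ENSMUSG00000024431.15, chromosome 18 of mm10, 39410545 to 39519421, minus strand) was at 34.2, 26.3 and 73.4 CPM in KO and at 59.2, 48.4, 30.1 and 72.8 CPM in cKO. It was at 46.0, 29.1 and 58.7 CPM in WT and at 46.5, 46.7 and 104 CPM in flox. The groups overlapped completely, and the pooled log2 fold change was −0.17 (95% interval −0.91 to 0.56, adjusted p = 0.9998 by edgeR's quasi-likelihood test). Tags are read at the 3' end, downstream of exon 3, so a transcript without exon 3 would be counted where it is present. By single-cell sequencing of 3' ends in younger embryos, the study found *Nr3c1* depleted in KO cells of each ovarian type. Here KO and WT both averaged 44.6 CPM, and the reason for this discrepancy was not tested. The value was not read as a check of the deletion or the labels. Without flox replicate 3 the sign of the *Nr3c1* difference turned, to 0.09.

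No glucocorticoid-induced gene passed the test. Of 24 tested members of the list, 15 were higher and 9 lower in GR-deficient libraries, where 46.8% of all tested genes were higher, none had an unadjusted p under 0.05, which 4.28% of all tested genes had, and the median log2 fold change was 0.12 against −0.04 over all genes tested. Their summed level was 679 to 993 CPM in GR-deficient and 581 to 1010 CPM in GR-intact libraries, a difference of 0.12 on the log2 scale (95% interval −0.21 to 0.46), so the sum was bounded within 1.37-fold. The direction was the same in each cross, at 0.15 for KO and 0.10 for cKO. *Foxo1*, a transcription factor of insulin signalling and the most abundant member with 22.6% of the reads of the list, averaged 219 ± 72.1 CPM in GR-deficient libraries (SD, n = 7) and 181 ± 36.9 CPM in GR-intact ones (n = 6). Its change was 0.74 in KO and −0.18 in cKO, and the p of the difference between crosses was 0.037 before adjustment (adjusted p = 0.9999, edgeR). *Cebpb* had the lowest p of the list and was counted at 0 to 10.0 CPM, with an interval of −5.63 to 0.95. Of the 24 tested members, 6 had their whole interval within 2-fold, which 28.7% of all tested genes had. Only 9 of the 24 averaged at least 50 counts, so most members could not be limited on their own. The other classical targets described here were named after their values were seen. *Tsc22d3*, which encodes the glucocorticoid-induced leucine zipper, had an interval that stayed within 1.6-fold, and *Fkbp5*, an immunophilin that feeds back on GR, one that stayed within 1.71-fold. *Txnip* is listed at 0.

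Promoter sequence was searched for the motif of a GR response element. The motif GNACANNNTGTNC is the palindrome that a GR dimer is known to bind, it reads the same on both strands, and it was found in 156 of 32851 RefSeq promoter windows of the build GRCm38.p6 (0.475%). Each window spans 250 bases before to 50 bases after a gene's start. Of the 30 glucocorticoid-induced genes with a window, 3 held the motif. They belonged to *Txnip*, *Mt1* (metallothionein 1, a metal-binding protein) and *Sgk1* (serum- and glucocorticoid-regulated kinase). The window of *Sgk1* is shown with the motif in capitals because its palindrome is complete. It lies on the plus strand at chr10:21993640-21993939, and the motif begins 188 bases before the start of the gene.
Sgk1: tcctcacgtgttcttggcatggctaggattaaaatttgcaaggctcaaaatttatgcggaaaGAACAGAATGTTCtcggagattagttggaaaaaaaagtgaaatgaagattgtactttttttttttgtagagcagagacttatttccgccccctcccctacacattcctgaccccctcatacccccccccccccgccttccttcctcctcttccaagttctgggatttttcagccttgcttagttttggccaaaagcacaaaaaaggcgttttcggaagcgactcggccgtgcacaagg

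In the pooled comparison *Sgk1* averaged 4.86 CPM in GR-deficient and 2.51 CPM in GR-intact libraries, and its 95% interval of −1.64 to 3.79 on the log2 scale set no useful limit. *Mt1* averaged 11 and 6.98 CPM, with an interval of −1.54 to 2.72. The 33 tested genes with the motif had a median log2 fold change of 0.06, against −0.03 for the 9564 tested genes with a window. Of these 33 genes, 20 were higher and 13 lower in the GR-deficient libraries, where 46.8% of all tested genes were higher. An unadjusted p under 0.05 was found for 1, *Myt1*, a gene of 0 to 27.0 CPM, and for 4.28% of all tested genes. The motif is a description of these windows and not a mapped binding site. How many windows would hold it by chance was not tested, and elements outside the windows were not searched. The 33 genes are therefore not read as genes that GR reaches.

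The machinery of the receptor was among the best measured functions of these cells. *Hsp90aa1*, the inducible cytosolic HSP90, had the narrowest interval of all 13086 genes tested. It was counted at 6430 to 8320 CPM in GR-deficient libraries and at 5420 to 8240 CPM in GR-intact ones, its log2 fold change was 0.04, and its 95% interval kept it within 1.26-fold. *Hsp90ab1*, the constitutive HSP90, was kept within 1.32-fold. Of the 29 tested chaperones, cofactors and hormone-converting enzymes, 12 were higher and 17 lower, and 20 had their whole interval within 2-fold, which 28.7% of all tested genes had. *Med1*, a Mediator subunit that nuclear receptors contact, had the lowest p of the group. It averaged 213 ± 37.3 and 167 ± 66.7 CPM, with an interval of 0.02 to 0.89 and an adjusted p of 0.9998 (edgeR). The summed level of the group differed by −0.0086 on the log2 scale (−0.22 to 0.20), a bound of 1.16-fold. *Hsp90aa1* alone held 42.7% of these reads, so the bound leans on it. The hormone-converting enzymes *Hsd11b1* and *Hsd11b2* had 0 and 3 reads over all libraries and were not tested, so the bound says nothing of them.

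Across all genes, none of 13086 passed an adjusted p of 0.05 (0%) in edgeR's quasi-likelihood test, and the lowest adjusted p was 0.221. An unadjusted p under 0.05 was reached by 560 genes (4.28%), 261 of them higher (1.99%) and 299 lower (2.28%) in GR-deficient oocytes. With limma voom no gene passed and 717 had an unadjusted p under 0.05; DESeq2 called 5 genes, *Colgalt2*, *BX649560.1*, *Rps19*, *Rpl23a* and *Myoz3*. Slightly fewer genes were higher than lower, 6129 of 13086 (46.8%), with a median log2 fold change of −0.04. Over the 7176 genes that averaged at least 50 counts the median was 0.0028.

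The lowest p belonged to *Rpl23a*, a protein of the large ribosomal subunit. It was at 28.1, 42.3 and 29.0 CPM in KO and at 154, 126 and 149 CPM in WT, and at 31.2, 66.4, 98.8 and 80.1 CPM in cKO and at 101, 180 and 167 CPM in flox. Every GR-deficient library lay below every control of its own cross, with a gap of 98.8 to 101 CPM in the conditional cross. The pooled log2 fold change was −1.58 ± 0.29 (SE), with adjusted p = 0.221 (edgeR) and an exact permutation p of 0.0029. That test runs over the 700 divisions of the libraries within the crosses, two-sided, and can give no p below 0.0014. It was applied to genes already picked for a low p and is no independent evidence. The interval of the gene is overlapped by 4 other genes over 39.5% of its length, so its reads could be shared.

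*Rps19*, a protein of the small ribosomal subunit, showed the same arrangement. It was at 472, 416 and 310 CPM in KO against 570, 570 and 854 CPM in WT, and at 458, 640, 448 and 432 CPM in cKO against 828, 990 and 904 CPM in flox. Its log2 fold change was −0.81 (95% interval −1.18 to −0.44, adjusted p = 0.5335 by edgeR, exact permutation p = 0.0029). *Rpl21*, of the large subunit, averaged 172 ± 84.1 CPM in GR-deficient and 389 ± 243 CPM in GR-intact libraries, and its groups overlapped because flox replicate 1 was at 141 and WT replicate 2 at 99.9 CPM. Ribosomal protein genes have many near-identical processed pseudogenes, and the sources used here do not say how reads that fit several places were counted, so the single values are uncertain.

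*Colgalt2*, a collagen galactosyltransferase, had the lowest p of the genes that were higher. It was at 35.3, 20.4 and 42.7 CPM in KO, and at 44.0, 46.6 and 44.2 CPM in 3 of the 4 cKO libraries, but at 0.39 CPM in cKO replicate 2. All 6 GR-intact libraries were between 0 and 4.00 CPM. The log2 fold change was 4.37 (2.62 to 6.13), with adjusted p = 0.5335 (edgeR) and an exact permutation p of 0.0071. It was 4.72 in KO and 4.01 in cKO.

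Further genes among those with the lowest p were counted at moderate levels. *Cggbp1*, which encodes a CGG-repeat binding protein, was at 271, 409 and 228 CPM in KO against 154, 172 and 160 CPM in WT, and at 188, 235, 163 and 261 CPM in cKO against 94.7, 149 and 148 CPM in flox. *Nelfa*, a subunit of the negative elongation factor that holds paused RNA polymerase II, was at 93.5, 89.0 and 131 CPM in KO against 62.4, 52.1 and 55.7 CPM in WT. In the conditional cross it was at 216, 127, 124 and 141 CPM in cKO against 95.9, 84.0 and 70.8 CPM in flox. Neither gene overlapped between groups in either cross, with log2 fold changes of 0.79 (0.36 to 1.22) and 0.87 (0.39 to 1.35), and the adjusted p was 0.9998 for each (edgeR). *Cks1b*, a subunit of cyclin-dependent kinases, averaged 110 ± 41.9 and 47.7 ± 18.0 CPM. *Fbxo45*, part of a ubiquitin ligase, averaged 112 ± 43.0 and 53.9 ± 18.6 CPM. *Gnl3l*, a nucleolar GTPase, averaged 103 ± 40.3 and 53.3 ± 20.2 CPM. *Synj1*, a phosphoinositide phosphatase, was lower in GR-deficient libraries at 161 ± 61.1 against 497 ± 413 CPM, with groups that overlapped in each cross. *Lsm14b* is described with the germline RNA-binding genes.

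**Figure D1:**
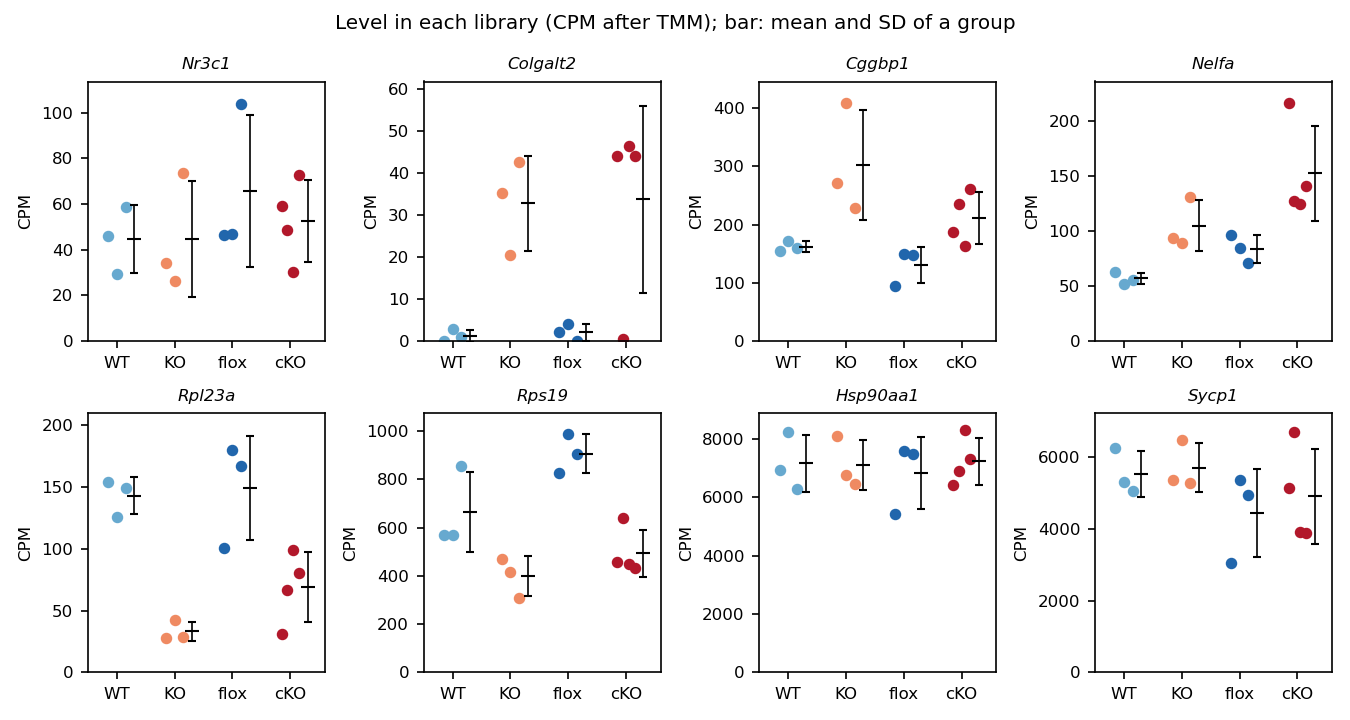
Level of 8 genes in each of the 13 libraries, in CPM after TMM normalization on a linear axis that starts at 0. Points are libraries, coloured by group, and the black bar beside each group is its mean and SD; *Nr3c1*, *Hsp90aa1* and *Sycp1* overlap between groups, whereas *Rpl23a* and *Rps19* were lower and *Cggbp1* and *Nelfa* higher in every GR-deficient library of each cross than in its controls.

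Rare genes made up much of the rest of the 12 with the lowest p in each direction. Every KO library had more tested genes at 0 than every WT library, and the part of this in the rare genes was not tested. *BX649560.1*, *Gm24305* and *Gm21964* had no read in any GR-intact library. Set against a floor of 3 counts in each such library, they were at least 6.58-fold, 7.11-fold and 3.79-fold higher in GR-deficient ones. These folds compare group means, and each gene also lacked reads in some GR-deficient libraries. *BX649560.1* had none in cKO replicate 2, and *Gm24305* none in cKO replicate 2 and in KO replicates 1 and 2. *Gm21964* had none in cKO replicate 3 and KO replicate 3. *E230025N22Rik* and *Ttpa*, the α-tocopherol transfer protein, had no read in any GR-deficient library and were at least 4.15-fold and 4.28-fold lower. *Gm29707*, *Bmp2* (a bone morphogenetic protein), *Myoz3* (a muscle Z-disc protein) and *Myt1* (a neural zinc-finger factor) had 1 to 2 reads in all 7 GR-deficient libraries together. Their read ratio, GR-intact over GR-deficient, was 154 (27.2 to 6150), 96.8 (26.4 to 807), 92.6 (25.2 to 771) and 147 (25.9 to 5860), intervals that cover counting error only. *Myoz3* and *E230025N22Rik* had at least 1 read in each GR-intact library, and the other genes that were lower had none in at least 1 of them. *Klhl1* and ENSMUSG00000027827.17 on the higher side, and *Gm15246* and *Smyd4* on the lower, complete the 24. *Klhl1*, an actin-binding Kelch protein, was at 78.8 to 103 CPM in KO and at 0 to 10.0 CPM in cKO. The p of that difference between the crosses was 0.129 before adjustment.

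The effect of losing GR was then set side by side in the 2 crosses, which share no library. Of all tested genes, 6832 (52.2%) had the same sign in KO against WT and in cKO against flox, 3240 (24.8%) being higher in each and 3592 (27.4%) lower in each. Across these genes the log2 fold changes correlated with a Pearson r of 0.0058, and across the 7176 genes of at least 50 counts with an r of 0.104 and the same sign in 54.5%. Genes are not independent replicates, and no p is given. The share with the same sign went up with abundance, from 48.8% of genes under 20 counts to 60.1% of those of 1000 counts or more. Of 761 genes with an unadjusted p under 0.05 in KO, 421 (55.3%) had the same sign in cKO, and of 418 such genes in cKO, 226 (54.1%) had it in KO. No gene had a difference of the GR effect between crosses at an adjusted p of 0.05 (0%) by edgeR, and 574 (4.39%) had an unadjusted p under 0.05. The genes with the lowest p of this difference were *Vopp1*, *Gm21738*, *March10*, *Evc2* and *Tmem181c-ps*. *Vopp1*, a membrane protein of vesicles, lay lower in every KO than in every WT library and higher in every cKO than in every flox library. DESeq2 called 4 genes for this difference, *Vopp1* and *Evc2* among them.

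Groups that did not overlap in either cross and moved in 1 direction were found for 45 genes, 13 higher (0.0993% of all tested) and 32 lower (0.245%). In opposite directions there were 24. Of the 13086 tested genes, groups did not overlap for 1238 in KO against WT and for 650 in cKO against flox. How many genes would lie apart in both crosses by chance was not tested. The 45 are therefore not read as a shared effect of losing GR. Of the 45, 25 averaged at least 50 counts, 10 higher and 15 lower. The 15 included the ribosomal proteins *Rpl23a*, *Rps19* and *Rps15*. Named after its values were seen, *Rps15* had a log2 fold change of −0.57 (−0.95 to −0.18). The 10 included *Cggbp1*, *Nelfa* and, also named after their values were seen, *Alkbh5*, an RNA m6A demethylase, at 0.58, and *Chek1*, the checkpoint kinase CHK1, at 0.55.

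**Figure D2:**
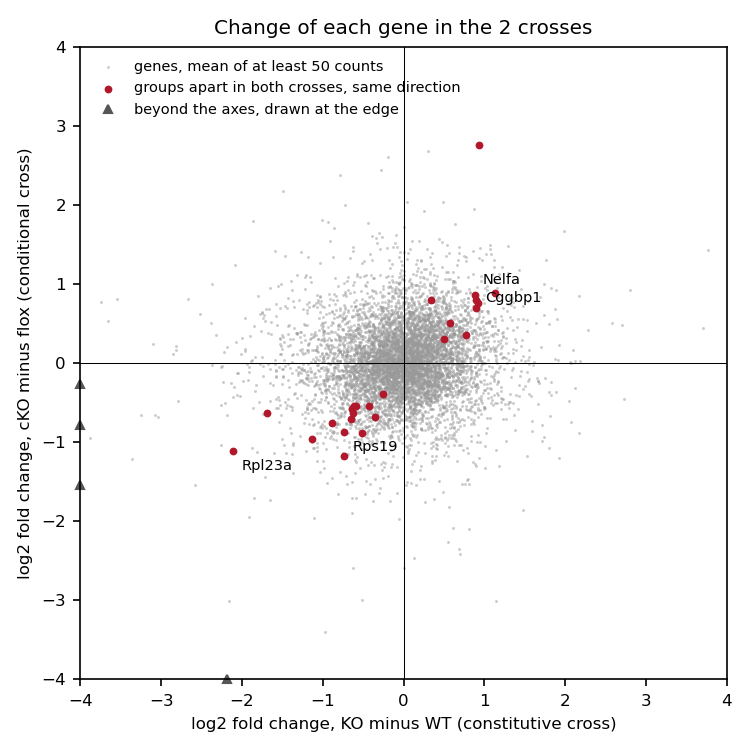
Log2 fold change of each of the 7176 genes averaging at least 50 counts, KO minus WT on the x axis and cKO minus flox on the y axis. The cloud is nearly round (r = 0.104), the 25 red points are genes whose groups did not overlap in either cross and went in 1 direction, and 4 genes beyond the axes are drawn at the edge.

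What the data can limit depends on abundance. A gene was taken as bounded where its whole 95% interval lay within 2-fold of no difference, and 3761 genes (28.7%) were, all of them with at least 50 counts on average, where they made up 52.4%. Within 1.5-fold there were 824 genes (6.3%). No gene under 50 counts was bounded within 2-fold, 5.30% were at 50 to 100 counts, 46.9% at 100 to 200, 84.0% at 200 to 500 and 95.3% at 1000 or more. The median SE of the log2 fold change was 1.46 for genes under 20 counts and 0.19 for genes of 1000 or more. The 10 narrowest intervals included those of *Hsp90aa1*, *Sub1*, *Hsp90ab1*, *Smc4*, *Tex15*, *Ubn1*, *Rif1*, *Serbp1* and *Rpl31*. *Sub1*, a transcriptional coactivator, was at 1710 to 2100 and 1700 to 2340 CPM. *Smc4*, a condensin subunit, was kept within 1.33-fold. *Rif1*, a factor of replication timing and break repair, was kept within 1.33-fold. A bounded gene may still differ by less than the limit.

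**Figure D3:**
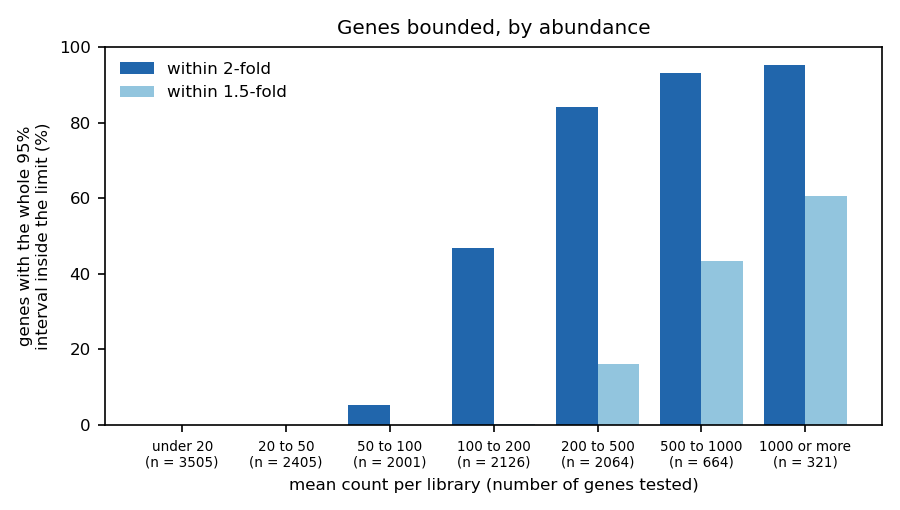
Percent of tested genes whose whole 95% interval of the GR-deficient against GR-intact fold change lay within 2-fold (dark bars) or 1.5-fold (light bars), by mean count per library, with the number of genes in each class. No gene under 50 counts is bounded, and 95.3% of genes of 1000 counts or more are within 2-fold.

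Functions were limited more tightly than genes by summing the reads of 35 lists, which match 1323 genes in the table, 1143 of them tested. The summed level was bounded within 1.5-fold for 34 lists, and for 19 of them the log2 interval stayed within 0.322 of 0. Summed log2 fold changes ran from −0.15 for cytosolic ribosomal proteins to 0.19 for germline RNA-binding proteins, and no interval of the 35 left out 0. Inflammatory and interferon response genes were the list that could not be bounded, at 0.18 (−0.28 to 0.63). The sum had the same sign in both crosses for 18 lists, 13 higher and 5 lower, and across the 35 lists the 2 crosses correlated with an r of −0.042, where lists share libraries and some genes. Medians over members were above 0 for 17 of the 35. A sum leans on its most abundant members, and a bounded sum does not bound each member. Members within 2-fold were 3 of 14 for primordial germ cell, 6 of 20 for imprinted, 5 of 16 for clock and 9 of 21 for oocyte differentiation genes. They were 9 of 19 for DNA methylation, 18 of 45 for cell cycle, 18 of 38 for insulin and mTOR genes and 20 of 35 for tRNA synthetases. For many of the other lists, counts of members stand beside the sum.

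**Figure D4:**
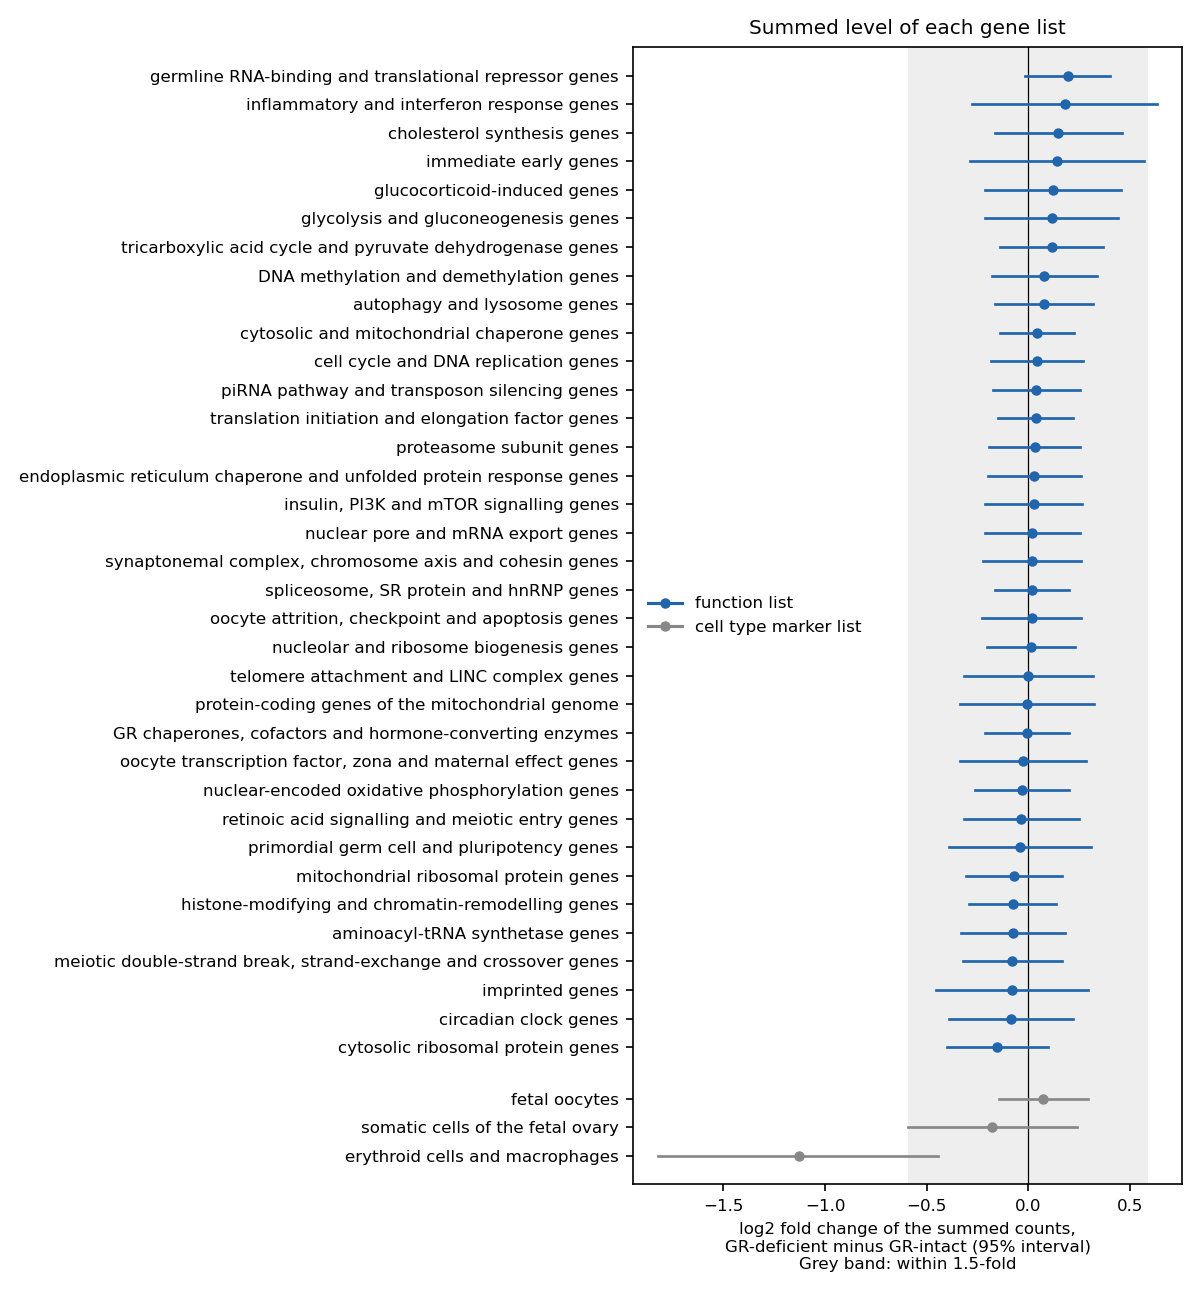
Log2 fold change of the summed counts of each gene list, GR-deficient minus GR-intact, with its 95% interval from the fit over 13 libraries; the grey band is 1.5-fold either way, and grey points are cell type markers. All function lists except the inflammatory and interferon genes lie inside the band and all their intervals cover 0, while the erythroid and macrophage markers lie below it at −1.13.

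The program of meiosis was measured deeply. For the synaptonemal complex, axis and cohesin genes the summed level was 11300 to 17600 CPM in GR-deficient and 10100 to 15500 CPM in GR-intact libraries, a log2 difference of 0.02 (−0.22 to 0.26), bounded within 1.20-fold. Of 26 tested members 10 were higher and 16 lower, and 21 were within 2-fold each. *Sycp1*, the transverse filament of the synaptonemal complex, which held 36.9% of these reads, was kept within 1.36-fold, at 5250 ± 1110 and 4990 ± 1060 CPM. *Smc1b* and *Stag3*, meiotic cohesins named after their values were seen, were kept within 1.33-fold and 1.37-fold. *Stag1*, a cohesin subunit of somatic cells as well, averaged 213 ± 33.3 and 291 ± 34.5 CPM, at −0.45 (−0.83 to −0.06), with an adjusted p of 0.9998 (edgeR). Genes of double-strand breaks, strand exchange and crossovers differed by −0.08 in sum (−0.32 to 0.16), with 22 of 52 higher and 30 lower and 23 within 2-fold. *Rad50*, of the break-processing MRN complex, was kept within 1.40-fold. Without flox replicate 1, the lowest GR-intact library for the synaptonemal list, its sum differed by −0.044 (−0.28 to 0.19). Telomere attachment and LINC complex genes were bounded within 1.24-fold in sum, at 0.00024, and differed by 0.138 (−0.17 to 0.44) without flox replicate 1, and 4 of 17 members within 2-fold, with *Lmnb1*, lamin B1, at 490 ± 98.5 and 554 ± 311 CPM. *Tinf2*, of the telomere cap, averaged 81.2 and 35.7 CPM and is overlapped over 63.3% of its interval.

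For meiotic entry and earlier germ cell identity fewer genes could be bounded. Retinoic acid and meiotic entry genes had a summed interval of −0.32 to 0.25, with 6 of 17 members within 2-fold. *Mga*, a repressor of germline genes with 28.0% of these reads, was kept within 1.31-fold. *Stra8*, the retinoic acid target that starts meiosis, had the lowest p of the list and was at 138 CPM in flox replicate 1, at 14.7 CPM in flox replicate 2, at 13.1 CPM in cKO replicate 4 and at 0 to 3.81 CPM in all others. Flox replicate 1 thus held the bulk of its reads. Primordial germ cell and pluripotency genes, of which 14 were tested, were bounded within 1.31-fold in sum, and *Kit*, the receptor of KIT ligand with 46.6% of these reads, averaged 313 ± 80.5 and 320 ± 130 CPM. *Lin28a*, a blocker of let-7, was at 1.56 to 28.0 and 1.43 to 12.2 CPM. Imprinted genes were bounded within 1.37-fold, *H19*, a long non-coding RNA, holding 23.4% of the reads at 133 to 544 and 83.5 to 587 CPM. *Mest*, the maternally imprinted gene with the lowest p, was at 0 to 2.08 and 0 to 15.0 CPM.

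Oocyte differentiation genes differed by −0.026 in sum (−0.34 to 0.28, within 1.26-fold). *Figla*, the factor that drives zona and follicle genes, was at 642 to 1500 CPM in GR-deficient and 702 to 1740 CPM in GR-intact libraries, with an opposite sign in the crosses, 0.33 in KO and −0.43 in cKO, whose difference had an edgeR p of 0.085 before adjustment (adjusted p = 0.9999). *Padi6*, of the cytoplasmic lattices, was at 0 to 61.1 and 2.18 to 9.08 CPM. The piRNA pathway was bounded within 1.19-fold, led by *Tex15*, which directs piRNA-guided silencing and was kept within 1.28-fold, and 15 of 27 members were within 2-fold. *Gtsf1*, a PIWI cofactor, averaged 225 ± 124 and 129 ± 41.6 CPM. DNA methylation genes were bounded within 1.26-fold, with *Hells*, a remodeller needed for methylation, kept within 1.34-fold. *Uhrf1*, which brings DNMT1 to replicated DNA, averaged 107 ± 13.7 and 71.8 ± 25.3 CPM. Chromatin modifiers and remodellers differed by −0.08 in sum (within 1.22-fold), 25 of 45 being within 2-fold. *Kmt2c*, a histone H3 lysine methyltransferase, was kept within 1.35-fold. *Jarid2*, a partner of PRC2, was at 338 to 569 CPM in GR-deficient and 499 to 751 CPM in GR-intact libraries, at −0.50 (−0.86 to −0.14), with an adjusted p of 0.9998 (edgeR) and an exact permutation p of 0.0029.

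Germline RNA-binding proteins and translational repressors were the list whose summed level differed most to the higher side. In KO they summed to 11070, 9633 and 9369 CPM against 8315, 8497 and 8924 CPM in WT, and in cKO to 10770, 8812, 8491 and 8915 CPM against 8243, 8335 and 8156 CPM in flox. The groups did not overlap in either cross, which held for 1 of the 35 lists. The log2 difference was 0.22 in KO and 0.17 in cKO, and 0.19 pooled with an interval of −0.016 to 0.40, which runs from 0.989-fold to 1.32-fold. With limma voom the interval was 0.05 to 0.33. Over the 13 fits without 1 library the pooled value was 0.165 to 0.218. Of 34 tested members, 24 were higher and 10 lower, where 46.8% of all tested genes were higher. Of the 34, 16 were higher in each cross and 6 lower in each, against 24.8% and 27.4% of all genes, and the median was 0.12. An unadjusted p under 0.05 was found for 2 of the 34, both higher, and for 1.99% of all tested genes on that side. None passed the test after adjustment. *Lsm14b*, an oocyte repressor of stored mRNAs, was at 959, 685 and 700 CPM in KO against 435, 249 and 436 CPM in WT, and at 831, 375, 463 and 389 CPM in cKO against 497, 263 and 308 CPM in flox. The 2 groups of the constitutive cross stood apart and those of the conditional cross overlapped, at 0.78 pooled (0.31 to 1.245, adjusted p = 0.9998 by edgeR). *Dazl*, which promotes translation in germ cells and is the most abundant member (14.1%), averaged 1400 ± 289 and 1120 ± 112 CPM, at 0.33 (−0.016 to 0.67). Without it the sum still differed by 0.17.

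**Figure D5:**
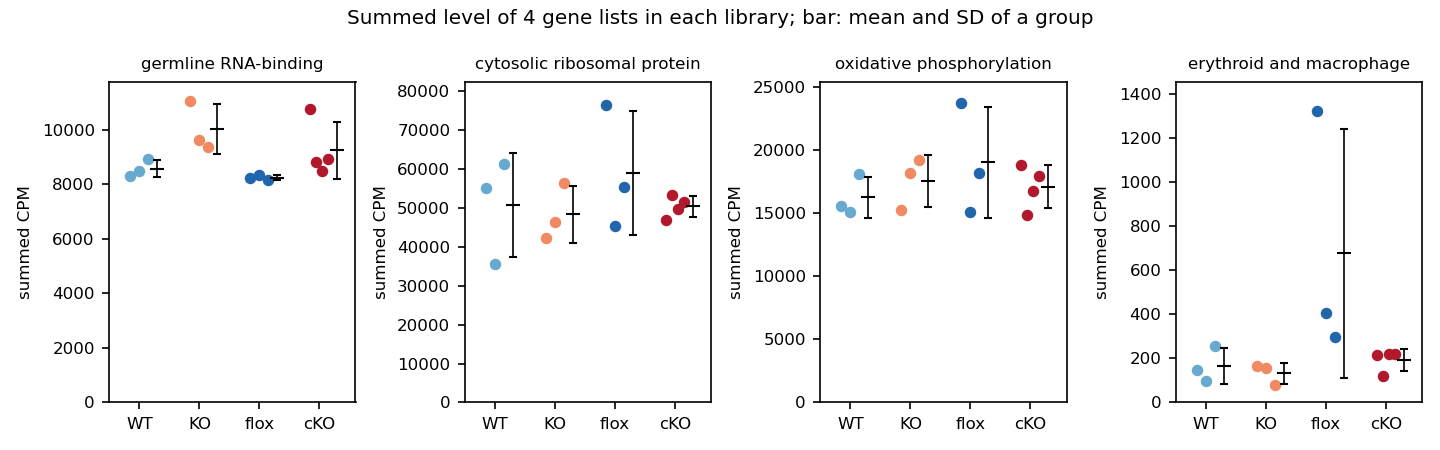
Summed CPM of 4 gene lists in each library, on a linear axis from 0, with the mean and SD of each group as a black bar. Germline RNA-binding genes lie at 8490 CPM or above in GR-deficient and at 8920 CPM or below in GR-intact libraries and are apart within each cross, while flox replicate 1 is the highest library for the ribosomal, oxidative phosphorylation and blood lists.

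Cytosolic ribosomal proteins were the list furthest to the other side. Their summed level was 42200 to 56300 CPM in GR-deficient and 35600 to 76500 CPM in GR-intact libraries, a log2 difference of −0.15 (−0.40 to 0.10), bounded within 1.32-fold. Of 75 tested members 30 were higher and 45 lower, 30 were lower in each cross and 10 higher in each, and 8 had an unadjusted p under 0.05, all lower. Of all tested genes 27.4% were lower and 24.8% higher in each cross, and 2.28% had such a p and were lower. The highest sum, 76500 CPM, was that of flox replicate 1, the library with the most blood RNA. Without it the difference was −0.0285, 44 members were higher and 32 lower, and 22 were lower and 22 higher in each cross, with 6 lower and 1 higher at an unadjusted p under 0.05. Without WT replicate 3 the members split into 43 higher and 33 lower. Without WT replicate 2, in contrast, the sum differed by −0.239 (−0.457 to −0.0201), an interval that left out 0, with 53 members lower and 23 higher. The size of the difference thus moved with single control libraries, while 58 of the 75 members were bounded within 2-fold each. *Rpl37*, the most abundant, averaged 3420 ± 542 and 4180 ± 1670 CPM.

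The rest of the translation apparatus was bounded close to 1. Initiation and elongation factors were at 13600 to 15100 and 13500 to 14600 CPM in sum (within 1.16-fold), and 36 of 51 members were within 2-fold. *Eef2*, the translocase of the ribosome, was kept within 1.41-fold, and *Eif5a*, the factor that carries hypusine, averaged 185 ± 41.9 and 125 ± 44.1 CPM. Nucleolar and ribosome biogenesis genes were bounded within 1.17-fold, 31 higher and 23 lower of 54. *Ncl*, nucleolin, was kept within 1.48-fold, and *Brix1*, of the large subunit's assembly, averaged 296 ± 120 and 169 ± 93.1 CPM. Aminoacyl-tRNA synthetases were bounded within 1.26-fold, *Lars2*, the mitochondrial leucine enzyme, being the most abundant and *Hars* for histidine being at 79.8 ± 27.4 and 165 ± 82.8 CPM, with a single-gene interval of −1.67 to −0.385. Mitochondrial ribosomal proteins were bounded within 1.24-fold, 31 higher and 38 lower of 69. *Mrpl52* averaged 185 ± 47.6 and 204 ± 47.2 CPM, and *Mrps18a*, with the lowest p, was at 0 to 9.32 and 0 to 20.9 CPM.

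Energy metabolism stayed within similar limits. Nuclear-encoded oxidative phosphorylation genes differed by −0.031 in sum (−0.26 to 0.20, within 1.20-fold), 47 of 71 members being within 2-fold, and by 0.08 without flox replicate 1. *Cox6c*, a subunit of cytochrome oxidase, was kept within 1.46-fold, and *Uqcrq*, of complex III, was at 153 ± 49.2 and 246 ± 86.5 CPM. All 7 tested mitochondrial-genome genes were within 2-fold each, with *mt-Nd4* and *mt-Nd2* of complex I kept within 1.35-fold and 1.48-fold. Tricarboxylic acid cycle genes differed by 0.11 (−0.14 to 0.37), *Sdha* of complex II being kept within 1.34-fold and *Fh1*, fumarase, averaging 97.4 ± 54.5 and 53.3 ± 19.7 CPM. Glycolysis and cholesterol synthesis were bounded within 1.36-fold and 1.37-fold in sum, but 2 of 13 and 3 of 21 members were within 2-fold each. Of 27 matched glycolysis genes only 13 were tested. *Gapdh* had 32 reads over all libraries and *Aldoa* is listed at 0, so the bound covers only the part of the pathway that was counted. *Pkm*, pyruvate kinase, held 45.4% of the glycolytic reads and went to −0.20 in KO and 0.76 in cKO, a difference with an edgeR p of 0.043 before adjustment (adjusted p = 0.9999). *Pgk1*, phosphoglycerate kinase, had the lowest p of glycolysis at 0 to 2.43 and 0 to 14.4 CPM. *Hmgcs1*, of cholesterol synthesis, was kept within 1.55-fold, and *Mvk*, mevalonate kinase, was at 0 to 20.5 and 0 to 0.889 CPM.

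Protein folding and turnover were bounded within 1.17-fold for cytosolic and mitochondrial chaperones, 1.20-fold for the endoplasmic reticulum and the unfolded protein response, and 1.19-fold for the proteasome, and autophagy and lysosome genes had a summed interval of −0.17 to 0.32. *Hspa5*, the chaperone BiP, was kept within 1.27-fold and *Vps35*, of the retromer, within 1.33-fold. *Pdia6*, a disulfide isomerase, averaged 518 ± 126 and 366 ± 62.6 CPM, and *Psmd13*, of the proteasome lid, 238 ± 68.9 and 391 ± 166 CPM. *Psma2*, the most abundant proteasome subunit, was kept within 1.65-fold, and 29 of the 39 subunits were within 2-fold. *Hspa14*, a chaperone of nascent chains, averaged 80.6 ± 36.9 and 40.0 ± 15.6 CPM, and *Rab7*, the small GTPase of late endosomes, was at 6.84 to 64.6 and 0 to 28.3 CPM.

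Splicing factors had the tightest limit of all lists, 1.15-fold, with summed levels of 21800 to 24400 CPM in GR-deficient and 19700 to 25000 CPM in GR-intact libraries. Of 79 members 40 were higher and 39 lower, and 61 were within 2-fold. An unadjusted p under 0.05 was reached upward by 7 and downward by 1, and none passed after adjustment. Of all tested genes 1.99% and 2.28% reached it, so the upward share of the list was larger. What lies behind that share was not tested. *Hnrnpu*, a nuclear scaffold RNA-binding protein, averaged 1180 ± 268 and 855 ± 147 CPM, at 0.49 (0.135 to 0.85, adjusted p = 0.9998 by edgeR, exact permutation p = 0.01). Nuclear pore and mRNA export genes were bounded within 1.19-fold. *Tpr*, of the nuclear basket, was kept within 1.43-fold, and *Ran*, the GTPase of nuclear transport, averaged 610 ± 218 and 395 ± 178 CPM.

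Survival, cell cycle and growth signalling were bounded within 1.20-fold each. Of 35 tested genes of oocyte attrition, checkpoints and apoptosis, 14 were higher and 21 lower, and 13 were within 2-fold. *Birc5*, survivin, was kept within 1.46-fold, and *Atm*, the kinase that senses breaks, averaged 128 ± 42.6 and 201 ± 102 CPM. In the cell cycle list *Cenpf*, a kinetochore protein, was kept within 1.38-fold, and *Rrm1*, of ribonucleotide reductase, averaged 58.5 ± 30.7 and 28.9 ± 12.4 CPM. In the insulin and mTOR list *Foxo3*, which holds oocytes dormant after birth, was at 330 to 589 and 283 to 617 CPM, and *Rps6kb2*, a ribosomal S6 kinase, at 0 to 37.9 and 0 to 64.7 CPM.

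Among the 35 function lists, the 2 with the widest bounds were those of inflammatory and immediate early genes. Inflammatory and interferon genes summed to 143 to 314 CPM in GR-deficient and 150 to 284 CPM in GR-intact libraries. Of 13 tested members 10 were higher and 3 lower, where 46.8% of all tested genes were higher. Of the 13, 6 were higher in each cross and none lower in each, against 24.8% and 27.4% of all tested genes. None had an unadjusted p under 0.05, which 4.28% of all tested genes had. Only 3 averaged at least 50 counts and 1 was within 2-fold, so most members could not be limited on their own. *Rela*, the p65 subunit of NF-κB with 33.9% of the reads, averaged 84.1 ± 20.5 and 64.8 ± 12.8 CPM, and without it the sum differed by 0.08. Immediate early genes were bounded within 1.48-fold in sum, with 0 of 17 members within 2-fold. The limit of 1.5-fold was met in 5 of the 13 fits without 1 library, the widest bound being 1.64-fold, and was missed without the filter beyond 1 count and under the replicate block. The sums went to 0.50 in KO and −0.17 in cKO. *Ier5* was at 23.7 to 99.9 and 24.4 to 149 CPM, and *Zfp36l1*, which promotes mRNA decay, averaged 41.4 ± 25.5 and 16.3 ± 15.0 CPM. Circadian clock genes, a list of the glucocorticoid group, were bounded within 1.31-fold, *Clock* being kept within 1.69-fold, and *Nfil3* had no read in any GR-deficient library and 0 to 7.64 CPM in GR-intact ones.

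The marker lists of other cell types were compared in the same fit. Somatic markers differed by −0.18 in sum (−0.59 to 0.24), at −0.51 in KO and 0.12 in cKO, with 18 of 26 tested and *Tcf21* listed at 0. Their sum was lower in every KO than in every WT library, and the pooled difference was −0.316 without flox replicate 1. Among them *Bmp2* had the lowest p and *Col1a1*, a collagen of mesenchyme, was the most abundant, at 11 to 168 and 10.6 to 131 CPM. Erythroid and macrophage markers were lower in GR-deficient libraries, at −1.13 (−1.82 to −0.44), and at −0.58 (−1.13 to −0.028) without flox replicate 1. Every cKO library lay below every flox library, and KO and WT overlapped. Of 6 tested members of this list 2 were higher and 4 lower, and *Hba-x*, *Hbb-y*, *Hbb-bh1* and *Alas2* are listed at 0. *Hbb-bs*, an adult β-globin, held 46.0% of the reads and was at 0 to 125 and 29.2 to 675 CPM, and *Hbb-bt*, the other adult β-globin, at 0 to 45.6 and 6.21 to 179 CPM. The part of blood or somatic RNA in the other results was not tested. The oocyte markers differed by 0.07 (−0.14 to 0.29, within 1.22-fold). In bulk samples, fewer cells of a type and less RNA per cell cannot be told apart.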

How the data were processed

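Sorted germ cells of 13 embryos were profiled by 3' Tag-Seq. The authors trimmed adapters with cutadapt, aligned to mm10 with STAR 2.6.0 and deposited counts per gene from featureCounts 1.6.3 (tool versions per the submitters' processing notes), not normalized; the annotation and the handling of multi-mapping or overlapping reads are not given in the sources used here. They also deposited 2 tables of their own comparisons (KO against WT, cKO against flox) holding fold changes, mean expression, test statistics and p-values, made with edgeR 3.28.1 and limma 3.42.2, which were not used. Symbols came from GENCODE M21, which named 54587 of 55335 genes.

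Counts were filtered with filterByExpr by group (minimum count 10, total 15), which kept 13086 genes, normalized by TMM and fitted in edgeR 4.0.16 (R 4.3.3) by quasi-likelihood with cross and GR status as terms. Genes at or below a Benjamini-Hochberg adjusted p of 0.05 count as called. The dispersion over all genes gave a common biological coefficient of variation of 0.856. Intervals of 95% are Wald intervals from that fit, and list sums were added to it as rows, with no test of lists. Effects per cross and their difference came from a fit of the 4 group means. CPM used TMM-scaled library sizes, and exact permutation tests used log2 CPM with a prior count of 2. A group at 0 was set to 3 counts per library for a lower bound on fold. No molecular identifiers are described, so read counts carry amplification and counting intervals cover counting error only. The p-values measure the spread between embryos.

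Named genes were *Nr3c1*, the 12 lowest p in each direction, the 10 narrowest intervals, the 5 lowest p of the difference between crosses, and in each list the member with the lowest p and the most abundant one. A few genes that this rule names are not reported here. The comparison, the members of the 38 lists and these rules were chosen with earlier results of these data known. Of function-list genes, 87 had 0 counts in every library, and 68 of those (78.2%) overlap another gene, against 48.8% of tested members. Scripts were tested on simulated data. Replicate numbers are shared between groups, but same-numbered libraries deviated together with an r of 0.0081 to 0.0749, so they were not taken as pairs. Alternatives were RLE and upper-quartile scaling, other filters, DESeq2 1.42.0, limma 3.58.1 voom with and without quality weights, no covariate, averaged group means, a replicate block, other limits, sums without the top member, and each library left out.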

Additional observations from a re-analysis of the deposited data

Results flagged for a closer look

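In groups of 4 to 7 libraries, 202 sets of values were screened for 1 library far from the rest, and 27 were found, 8 of them sums over a list and 19 of them genes. Chance alone gives about 1 in 20 such sets where values spread continuously, and the sets share libraries. The rate does not hold for a rare gene, where a single library with reads among others at 0 is flagged. *Gm29707*, *Bmp2* and *Myoz3* were flagged in this way both among cKO and among all GR-deficient libraries. The number found is therefore not read as an excess.

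Flox replicate 1 stood apart among the GR-intact libraries in several functions. Its synaptonemal complex, axis and cohesin genes summed to 10100 CPM (others 13900 to 15500), its oocyte markers to 12200 CPM (others 15200 to 16000), its oxidative phosphorylation genes to 23800 CPM (others 15100 to 18200) and its blood markers to 1320 CPM (others 96.0 to 407). *Cggbp1* was at 94.7 CPM there (others 148 to 172), *Myt1* at 27 CPM (others 0 to 9.77) and *March10*, a ubiquitin ligase, at 34.7 CPM (others 0 to 9.7).

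Among the cKO libraries, replicate 1 was highest for attrition and apoptosis genes (3120 CPM against 2660 to 2680) and tricarboxylic acid cycle genes (4170 against 2980 to 3180), and it held the highest *Nelfa* of all GR-deficient libraries (216 CPM against 89.0 to 141). Replicate 2 was highest for recombination genes (5390 CPM against 4120 to 4240) and *Rps19* (640 against 432 to 458) and lowest for blood markers (119 against 217 to 220) and *Colgalt2* (0.39 against 44.0 to 46.6). Replicate 4 held the highest *Cebpb*, at 10 CPM against 0 to 1.1 in the other GR-deficient libraries.

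For 4 rare genes 1 cKO library was the single GR-deficient library with a read: *Gm29707* at 0.367 CPM in replicate 3, *Bmp2* at 0.781 in replicate 2, *Myoz3* at 0.69 and *Myt1* at 0.345 in replicate 4. ENSMUSG00000027827.17 was at 36.5 CPM in KO replicate 3 (other GR-deficient libraries 0.345 to 7.81). Among GR-intact libraries *Klhl1* was at 13.9 CPM in WT replicate 2 (others 0.889 to 3.54) and *Tmem181c-ps* at 4.89 CPM in WT replicate 3, with no read in the others.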

How the results depend on the processing

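No gene was called under either other scaling (RLE, upper-quartile), a minimum of 10 counts in every library, either voom fit, no covariate, averaged crosses, the replicate block or any fit without 1 library. Without a filter beyond 1 count 14 of 22038 genes were called (1 higher, 11 of them among the 560 of the reported fit) and 1632 had an unadjusted p under 0.05, and 8 were called for the difference between crosses; DESeq2 called 5 and 4. The cause was not tested. The share of genes with the same sign in both crosses was 42.0% without that filter, 54.2% with at least 10 counts in every library, 53.1% with quality weights, 54.5% over genes of at least 50 counts, and 50.3% to 53.1% without 1 library. With limma voom 228 of the genes with an unadjusted p under 0.05 were higher and 489 lower. Over all these settings the genes bounded within 2-fold numbered 3283 to 3948, and 33 to 35 lists were bounded within 1.5-fold; with stricter limits, as their construction requires, they were 824 genes and 19 lists. *Nr3c1* turned to 0.0903 without flox replicate 3 and was as low as −0.416 over these fits. Same-numbered libraries correlated by at most 0.0749 in their deviations, though 5 of 6 numbered GR-deficient libraries correlated best with their own number, so numbers were not read as pairs; the replicate block gave 576 genes with an unadjusted p under 0.05, 3499 bounded genes and 33 bounded lists. Depth limits all statements on genes under 50 counts, none of which was bounded. DESeq2 was not run on list sums.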
